A study of Mus musculus with 3 samples.

Results

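The genes described here encode the collagen hydroxylases P4ha1, P4ha2, P4hb, Plod1, Plod2, Plod3, P3h1 and P3h3 and the collagen chaperones Serpinh1 and Fkbp10. They were taken from the gene tables by Entrez gene number, 10 of the 17997 genes listed in any library, and all 10 were listed in all 3 libraries. They were chosen by what the proteins do and selected on FPKM and expected counts of these same 3 libraries, which were known beforehand, so their levels and ratios are a description. Total RNA was sequenced from the mouse embryonic stem cell line 46C (strain 129), a line with a green fluorescent Sox1 reporter, grown with serum and leukemia inhibitory factor on gelatin. One culture had received the empty vector (PB) and was collected at passage 2 (empty vector P2). Cells that had received lef1 (PB-Lef1) were collected at passage 2 (Lef1 P2) and passage 5 (Lef1 P5). The labels do not say whether the transfected cells were clones or pools, or whether the passage 5 cells descend from those of passage 2. Each group has 1 library, so no test between conditions was possible and no p-value is given.

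Collagen chains are modified and folded in the endoplasmic reticulum before secretion. Prolyl 4-hydroxylase, a tetramer of alpha subunits (P4ha1 or P4ha2) and the disulfide isomerase P4hb, makes the hydroxyproline that stabilises the triple helix. Lysyl hydroxylases (Plod1, Plod2 and Plod3) make the hydroxylysine used for cross-links and sugar attachment. The prolyl 3-hydroxylase P3h1 modifies a few further prolines, and P3h3 is named to the same family. Serpinh1 (HSP47) binds the folded triple helix and Fkbp10 (FKBP65) is a prolyl isomerase of the same compartment. Cells of the extraembryonic endoderm, above all the parietal endoderm, secrete large amounts of basement membrane collagen IV, and hydroxylation of collagen IV is extensive.

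The upstream sequences of the genes with the highest ratios in Lef1 P2 are shown because Serpinh1, P4ha2 and P4ha1 stood well above the other members. They are the 250 bases before the RefSeq start site in GRCm38.p6, 5′ to 3′ on the gene's strand. Capitals mark matches to ACGTG or its reverse complement CACGT, a form of the core of the hypoxia response element. The other form, GCGTG, was not searched and is not marked where it occurs.
Serpinh1, chr7:99353240-99353489, minus strand: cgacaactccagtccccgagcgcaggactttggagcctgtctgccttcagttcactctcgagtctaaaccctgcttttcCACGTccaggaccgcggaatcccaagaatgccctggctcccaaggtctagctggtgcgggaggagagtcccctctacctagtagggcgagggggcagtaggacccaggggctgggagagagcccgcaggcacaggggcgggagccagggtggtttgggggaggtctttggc
P4ha2, chr11:54100674-54100923, plus strand: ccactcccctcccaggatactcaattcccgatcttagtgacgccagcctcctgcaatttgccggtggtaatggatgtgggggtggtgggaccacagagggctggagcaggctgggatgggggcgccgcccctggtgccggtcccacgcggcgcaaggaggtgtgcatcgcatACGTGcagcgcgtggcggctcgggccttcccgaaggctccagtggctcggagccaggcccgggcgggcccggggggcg
P4ha1, chr10:59323046-59323295, plus strand: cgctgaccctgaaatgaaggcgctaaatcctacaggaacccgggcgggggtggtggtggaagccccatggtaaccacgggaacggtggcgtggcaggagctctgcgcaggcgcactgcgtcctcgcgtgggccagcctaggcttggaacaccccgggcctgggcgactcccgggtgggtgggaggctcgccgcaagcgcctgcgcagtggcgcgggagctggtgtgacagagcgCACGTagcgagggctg

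The match began 171 bases before the start site in Serpinh1, 78 bases before it in P4ha2 and 16 bases before it in P4ha1. RefSeq promoters were matched for 8 members, with 9 start sites, since P3h1 has 2. ACGTG was found on either strand at 6 of these 9, belonging to P3h1, P4ha1, P4ha2, P4hb, Plod3 and Serpinh1, and in 16.6% of the 32851 promoter windows of the same length. P3h1 and Plod3, neither of which was called in any comparison, also held the match. The LEF1/TCF core CTTTGA was found in 1 of the 9, that of Plod3, and in 13.8% of all windows. The heat shock motif GAANNTTC, the GATA motif AGATAA and the endoplasmic reticulum stress element were searched on both strands. They had 0 matches in the 9, against 6.69%, 9.99% and 0.113% of all windows. None of these motifs overlapped another in a member. The members' windows were 54.8% to 70.0% G and C, against a mean of 53.2% over all windows. A match describes the letters in the window and says nothing of binding.

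The sums of expected counts were 9225401 with the empty vector, 9170554 in Lef1 P2 and 9380813 in Lef1 P5. Levels are FPKM, fragments per kilobase of transcript scaled to library size, as deposited. Ratios are log2 of (FPKM + 1), and a gene was called at 2-fold or more on this scale, provided its higher library held 3 FPKM and 20 expected reads. Folds are plain ratios of FPKM, and intervals in parentheses are exact 95% intervals for counting error only. The spread between cultures was not measured. Lef1 itself was at 1.49 FPKM in empty vector P2, 135 FPKM in Lef1 P2 and 214 FPKM in Lef1 P5, so its level follows the labels. Of all genes tested 8.31% were called in Lef1 P2 against empty vector P2, 2.69% in Lef1 P5 against empty vector P2 and 8.74% in Lef1 P5 against Lef1 P2. As deposited, 78.1% of the calls in the first comparison were higher, against 62.3% with median-of-ratios and 62.5% with TMM scaling. In Lef1 P5 against Lef1 P2, 21.5% of the calls were higher, against 45.8% and 43.4%.

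Across the members, 9 of 10 were highest in Lef1 P2 and the other, Fkbp10, was highest in empty vector P2. In Lef1 P2 against empty vector P2, 6 of the 10 were called higher and 1 lower, where 6.49% of all genes tested were called higher and 1.82% lower. Their median ratio was 1.23, against 0.09 for all genes tested. The summed level of the 10 was 311 FPKM in empty vector P2, 969 FPKM in Lef1 P2 and 411 FPKM in Lef1 P5, and P4hb alone made up 49.1%, 34.2% and 46.8% of it. Without P4hb the sums were 158 FPKM, 638 FPKM and 219 FPKM. In these bulk libraries, a larger share of cells with high levels and more RNA per cell cannot be told apart.

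**Figure D1:**
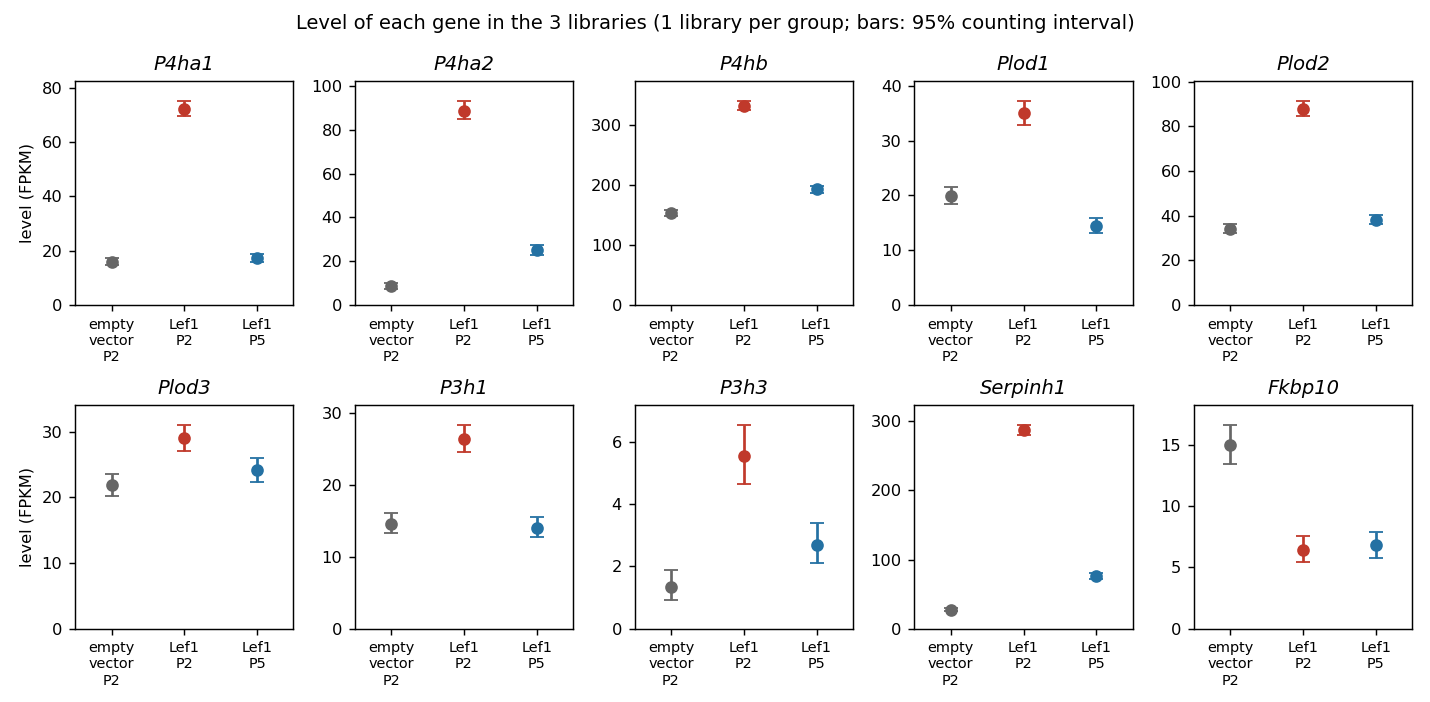
Level of each of the 10 genes in FPKM (y axis, from 0, with its own scale in each panel) in empty vector P2 (grey), Lef1 P2 (red) and Lef1 P5 (blue); points are single libraries and bars 95% counting intervals. Lef1 P2 is the highest library for 9 genes, and Fkbp10 is at 15.0 FPKM in empty vector P2 against 6.43 and 6.81 FPKM.

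The alpha subunits of prolyl 4-hydroxylase had the widest differences among the enzymes. P4ha2 (Entrez gene 18452) stood at 8.53 FPKM (7.31 to 9.89) with the empty vector, at 88.7 FPKM (84.7 to 92.9) in Lef1 P2 and at 25.0 FPKM (22.9 to 27.2) in Lef1 P5. Its 3 counting intervals were separate, with Lef1 P2 10.4-fold (8.90 to 12.2) and Lef1 P5 2.93-fold (2.47 to 3.50) above empty vector P2. P4ha1 (Entrez gene 18451), the isoform most widely expressed across tissues, was at 15.96 FPKM (14.7 to 17.3), 72.2 FPKM (69.5 to 75.0) and 17.2 FPKM (15.9 to 18.6) in the same order. It was 4.53-fold (4.14 to 4.96) higher in Lef1 P2 than in empty vector P2, whereas the intervals of Lef1 P5 and empty vector P2 overlapped. In Lef1 P5, P4ha1 was 4.19-fold and P4ha2 3.55-fold lower than in Lef1 P2, and both were called.

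The balance of the alpha subunits therefore differed between the libraries. P4ha2 was at 0.53 times the FPKM of P4ha1 (0.45 to 0.63) in empty vector P2, 1.23 times (1.16 to 1.31) in Lef1 P2 and 1.45 times (1.29 to 1.63) in Lef1 P5. P4ha2 made up 34.8% of the summed alpha subunit level in empty vector P2 and was the more abundant of the pair in both Lef1 libraries, with 55.1% and 59.2%. The third alpha subunit gene, P4ha3, was at 0.09 FPKM with the empty vector and 0.14 FPKM in Lef1 P2, on 2 and 3 reads, and was not listed in Lef1 P5.

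P4hb (Entrez gene 18453), the beta subunit, also acts as a general disulfide isomerase without the alpha subunits. It was the most abundant member in each library, at 153 FPKM (148 to 158), 331 FPKM (324 to 338) and 192 FPKM (187 to 198). It was 2.17-fold (2.08 to 2.26) higher in Lef1 P2 than in empty vector P2, just past the threshold, with a log2 ratio of 1.11 as deposited and 0.95 with median-of-ratios scaling, below the threshold. In Lef1 P5 it was 1.26-fold (1.20 to 1.32) above empty vector P2. The summed alpha subunits were at 0.16 times the P4hb level in empty vector P2, 0.49 times in Lef1 P2 and 0.22 times in Lef1 P5, so the alpha subunits differed by more than the beta subunit.

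Among the lysyl hydroxylases, Plod2, which hydroxylates the telopeptides used for cross-links, was the most abundant in every library and the only one called higher in Lef1 P2. Plod2 (Entrez gene 26432) stood at 34.0 FPKM (32.1 to 36.1) with the empty vector, at 87.9 FPKM (84.7 to 91.2) in Lef1 P2 and at 38.2 FPKM (36.2 to 40.4) in Lef1 P5. It was 2.58-fold (2.41 to 2.77) higher in Lef1 P2 and 1.12-fold (1.04 to 1.22) higher in Lef1 P5 than in empty vector P2, and 2.30-fold lower in Lef1 P5 than in Lef1 P2. With median-of-ratios scaling the last of these was -0.98 (log2), short of a call.

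Plod1 (Entrez gene 18822), which acts on lysines within the triple helix, had another order of levels. It stood at 19.9 FPKM (18.4 to 21.6) with the empty vector, at 34.95 FPKM (32.9 to 37.1) in Lef1 P2 and at 14.4 FPKM (13.1 to 15.9) in Lef1 P5. The level in Lef1 P2 was 1.75-fold (1.58 to 1.95) the empty-vector level and that in Lef1 P5 0.72-fold (0.64 to 0.82), so the Lef1 libraries lay on either side of the empty vector. Neither passed the threshold, but Lef1 P5 was 2.42-fold lower than Lef1 P2, which did.

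Plod3 (Entrez gene 26433), whose protein also adds the sugars of hydroxylysine and is needed for collagen IV secretion, had the smallest difference of the 10 between Lef1 P2 and the empty vector. It was at 21.9 FPKM (20.2 to 23.6), 29.0 FPKM (27.1 to 31.0) and 24.1 FPKM (22.4 to 25.9) in the same order. Lef1 P2 was 1.33-fold (1.20 to 1.47) above empty vector P2, and the intervals of Lef1 P5 and empty vector P2 overlapped. Plod2 was at 1.56 times the FPKM of Plod3 (1.41 to 1.72) in empty vector P2, 3.03 times (2.81 to 3.27) in Lef1 P2 and 1.58 times (1.44 to 1.74) in Lef1 P5. Against Plod1, it was at 1.71, 2.52 and 2.65 times. In Lef1 P5, Plod2 thus had its empty-vector ratio to Plod3 within counting error, but not to Plod1. Of the glycosyltransferases that act after lysyl hydroxylation, Colgalt1 was at 41.4, 68.4 and 52.8 FPKM and was not called, while Colgalt2 was listed with a single read, in Lef1 P5.

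**Figure D2:**
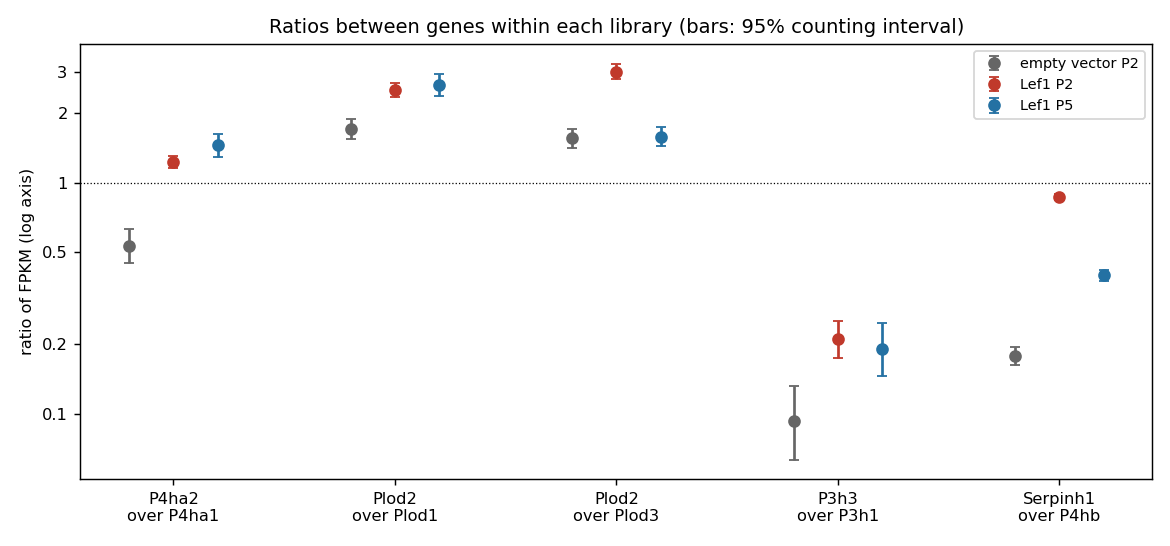
Ratio of FPKM between 2 genes of the same library (y axis, log scale) in empty vector P2 (grey), Lef1 P2 (red) and Lef1 P5 (blue), with 95% counting intervals. P4ha2 over P4ha1 is below 1 in empty vector P2 and above 1 in both Lef1 libraries, and Plod2 over Plod3 is higher in Lef1 P2 alone.

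P3h1 (Entrez gene 56401), which works in a complex with Crtap and the cyclophilin Ppib, stood at 14.6 FPKM (13.2 to 16.0) with the empty vector, at 26.3 FPKM (24.5 to 28.3) in Lef1 P2 and at 14.0 FPKM (12.7 to 15.4) in Lef1 P5. Lef1 P2 was 1.81-fold (1.60 to 2.04) above empty vector P2 and was not called, and the intervals of the other 2 libraries overlapped. Crtap was at 47.1, 46.2 and 53.8 FPKM and Ppib at 132, 183 and 157 FPKM, both without a call, so the partners of P3h1 differed by less between empty vector P2 and Lef1 P2 than P3h1 did.

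P3h3 (Entrez gene 14789), which associates with P3h4 and Plod1 and was the weakest member in every library, had 1.35 FPKM (0.93 to 1.89), 5.53 FPKM (4.64 to 6.53) and 2.69 FPKM (2.09 to 3.40), again in that order. These levels rest on 34, 138 and 69 expected reads. It was called higher in Lef1 P2 at 4.10-fold (2.80 to 6.15), while in Lef1 P5 it was 1.99-fold (1.30 to 3.10) above empty vector P2 and below 3 FPKM in both libraries, so it was not tested there. The call in Lef1 P2 was lost with a pseudocount of 5 FPKM, where the log2 ratio was 0.73 in place of 1.47, and P3h3 did not reach a minimum of 10 FPKM. P3h4 was at 10.3, 7.34 and 5.53 FPKM and P3h2, which acts on collagen IV, at 0.15, 1.54 and 0.34 FPKM. P3h4 was not called. P3h2 stayed below 3 FPKM and was not tested, with 3, 31 and 7 reads and a fold of 10.3 (3.20 to 52.5) in Lef1 P2 against empty vector P2.

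Serpinh1 (Entrez gene 12406) had the highest ratio of the 10 in Lef1 P2. It stood at 27.3 FPKM (25.0 to 29.6) with the empty vector, at 287 FPKM (280 to 295) in Lef1 P2 and at 76.3 FPKM (72.5 to 80.1) in Lef1 P5. Lef1 P2 was 10.5-fold (9.65 to 11.5) and Lef1 P5 2.80-fold (2.54 to 3.09) above empty vector P2, and Lef1 P5 was 3.76-fold lower than Lef1 P2. Its level stood at the 81.3rd percentile of the listed genes in empty vector P2, the 98.9th in Lef1 P2 and the 93.9th in Lef1 P5. Relative to P4hb it was at 0.18 times (0.16 to 0.20), 0.87 times (0.84 to 0.90) and 0.40 times (0.37 to 0.42).

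Fkbp10 (Entrez gene 14230) was the member that was lower in both Lef1 libraries. It stood at 15.0 FPKM (13.5 to 16.6) with the empty vector, at 6.43 FPKM (5.45 to 7.54) in Lef1 P2 and at 6.81 FPKM (5.81 to 7.94) in Lef1 P5. Lef1 P2 was 2.33-fold and Lef1 P5 2.20-fold below empty vector P2, and the intervals of the Lef1 libraries overlapped. Both calls lay close to the threshold, at log2 ratios of -1.11 and -1.04, and both were lost with a pseudocount of 5 FPKM, at -0.81 and -0.76. With median-of-ratios scaling the call in Lef1 P5 was lost, the ratio falling just short. Its interval of fold in Lef1 P2 was 0.35 to 0.52 and in Lef1 P5 0.38 to 0.55. Serpinh1 was at 1.82 times the FPKM of Fkbp10 (1.59 to 2.08) in empty vector P2, 44.6 times (38.0 to 52.8) in Lef1 P2 and 11.2 times (9.53 to 13.2) in Lef1 P5, so the pair of chaperones parted widely.

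Lef1 P5 and the empty vector differ both in Lef1 and in passage number, and these cannot be told apart. P4ha2 and Serpinh1 were called higher and Fkbp10 lower, 3 of the 10, where 1.40% of all genes tested were called higher and 1.28% lower. The median ratio of the 10 was 0.15, against -0.02 for all genes tested. Set beside each other on the log2 scale, the ratios to empty vector P2 in Lef1 P2 and Lef1 P5 were 2.11 and 0.11 for P4ha1, 3.23 and 1.45 for P4ha2, and 3.35 and 1.45 for Serpinh1. They were 1.34 and 0.16 for Plod2, 1.11 and 0.33 for P4hb, and 1.47 and 0.65 for P3h3. These comparisons share the empty-vector library. P4ha1 and Plod2 were thus near their empty-vector levels in Lef1 P5, whereas P4ha2 and Serpinh1 were not.

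Between the Lef1 libraries, P4ha1, P4ha2, Plod1, Plod2 and Serpinh1 were called lower in Lef1 P5 and 0 members higher, where 6.86% of all genes tested were called lower and 1.88% higher. The median ratio of the 10 was -1.02, against -0.14 for all genes tested. P4ha1 had the lowest ratio (-2.00), below that of Serpinh1 (-1.90) and P4ha2 (-1.79). Lef1 mRNA itself was 1.58-fold higher in Lef1 P5 than in Lef1 P2, so the members and Lef1 did not follow the same order of libraries. Counting error is small at these depths. The interval of the fold excluded 1 for 10 of 10 members in Lef1 P2 against empty vector P2 and for 68.2% of all genes tested, for 7 of 10 in Lef1 P5 against empty vector P2 and 51.0% of all, and for 9 of 10 between the Lef1 libraries and 70.8% of all.

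**Figure D3:**
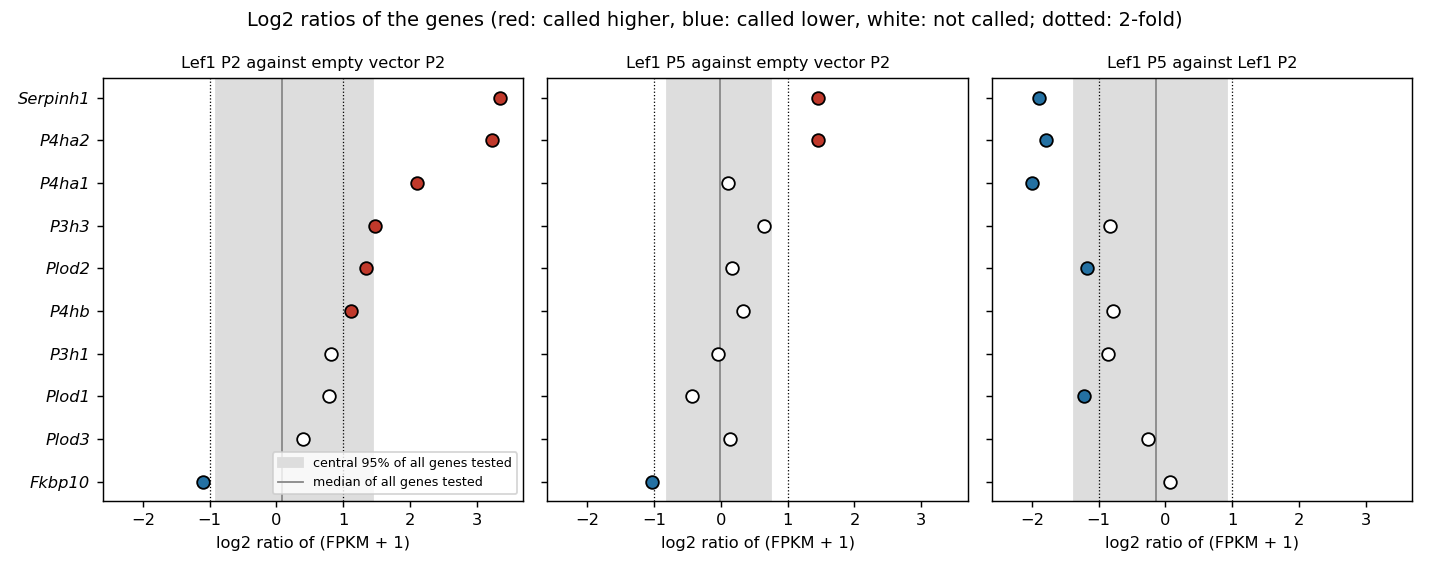
Log2 ratio of (FPKM + 1) of each gene (x axis) in the 3 comparisons, with filled points for called genes, dotted lines at 2-fold and grey for the central 95% of all genes tested. Serpinh1, P4ha2, P4ha1 and, at its edge, P3h3 lie to the right of the grey range in Lef1 P2, and Fkbp10 lies to its left in both comparisons with the empty vector.

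Among the substrates of these enzymes, the basement membrane collagens Col4a1 and Col4a2 had the widest differences. Col4a1 was at 17.0, 316 and 73.4 FPKM and Col4a2 at 9.73, 195 and 43.2 FPKM in the 3 libraries, higher by 18.5-fold and 20.03-fold in Lef1 P2. Of the 10 genes of this list 3 reached the levels needed for a call, and Col18a1 was called lower in Lef1 P2 (99.5 to 45.6 FPKM). The main fibrillar chains of skin and bone were at low levels: Col1a1 was at 1.28, 0.87 and 0.41 FPKM, and Col3a1 was listed with a single read, in Lef1 P5. Of 11 fibrillar genes 4 reached those levels and 2 were called higher in Lef1 P2, Col11a1 (1.15 to 12.8 FPKM) and Col27a1 (0.34 to 3.36 FPKM), and of 23 further collagen genes Col20a1 and Col9a3.

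Relative to the summed Col4a1 and Col4a2 level, Serpinh1 and the hydroxylases were lower in both Lef1 libraries than in empty vector P2. Serpinh1 was at 1.02 times that sum in empty vector P2, 0.56 times in Lef1 P2 and 0.65 times in Lef1 P5. The summed alpha subunits P4ha1 and P4ha2 were at 0.91, 0.32 and 0.36 times, and the summed lysyl hydroxylases at 2.83, 0.30 and 0.66 times. The chains therefore differed by more between the libraries than their chaperone and hydroxylases.

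Of 12 further collagen-modifying and folding genes, such as Colgalt1, Ppib and Fkbp9, 8 reached the levels needed for a call and 0 were called in Lef1 P2 in either direction. The median ratio of these 8 was 0.51, against 1.23 for the 10 members and 0.09 for all genes tested. Over all 12, weak genes included, it was 0.43. The members were selected on these same levels, so the contrast is a description only. Of 11 genes for procollagen export, the coat genes Sec24d (13.3 to 31.8 FPKM) and Sec23a (27.2 to 61.5 FPKM) were called higher, and Mia3, the collagen cargo receptor, was at 12.1 and 15.9 FPKM. Of 15 genes for processing and cross-linking, of which 7 reached the levels needed, the transglutaminase gene Tgm2 (9.95 to 25.4 FPKM) was called higher and the proteinase enhancer gene Pcolce2 (12.2 to 5.26 FPKM) lower. The lysyl oxidase gene Lox was under 0.1 FPKM in each library, but the related gene Loxl2 was at 13.62, 14.05 and 9.80 FPKM, without a call. Pxdn, of the same list, was at 5.43, 11.35 and 4.19 FPKM. It was just short of a call in Lef1 P2 (log2 ratio 0.94) and was called lower in Lef1 P5 than in Lef1 P2. In Lef1 P5 against empty vector P2, the first 2 of these lists had 0 calls and the third had Adamts14 lower (5.27 to 1.72 FPKM). Of the genes for collagen-related control, Sparc (85.2 to 545 FPKM) and the secretory pathway factor gene Creb3l2 (3.82 to 21.0 FPKM) were called higher in Lef1 P2 and Creb3l1 (12.6 and 13.2 FPKM) was not.

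The general folding machinery gives a background for P4hb. Of 16 disulfide isomerase and oxidoreductase genes 6 were called higher in Lef1 P2, led by the sulfhydryl oxidase gene Qsox1 (4.89 to 24.6 FPKM), Txndc12 (29.1 to 90.6 FPKM), Pdia5 (11.7 to 36.4 FPKM) and the oxidase gene Ero1a (21.4 to 50.2 FPKM). Of all genes tested, 6.49% were called higher in that comparison. Ero1a, Txndc11 and Tmx1 were close to the threshold, at log2 ratios of 1.19, 1.16 and 1.14, as was P4hb. The median ratio of the 16 was 0.71. Of 14 general chaperone genes of the endoplasmic reticulum 1 was called higher, the co-chaperone gene Dnajc3, with a median ratio of 0.38. The most abundant of these, Hsp90b1, was at 374 and 479 FPKM, and Hspa5 (BiP) at 225 and 297 FPKM. Neither list had a call in Lef1 P5 against empty vector P2.

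P4ha1, P4ha2 and Plod2 belong to the genes known to respond to hypoxia, and prolyl and lysyl hydroxylases need oxygen, iron, ascorbate and 2-oxoglutarate. Of 19 other hypoxia-responsive genes 3 were called higher in Lef1 P2 and 0 lower, namely Vegfa (13.4 to 42.9 FPKM), Egln1 (6.74 to 19.2 FPKM), whose product hydroxylates the HIF factors, and Ero1a. Their median ratio was 0.33. Ldha, the most abundant of them in empty vector P2, was at 977 and 740 FPKM, and Pgk1, the most abundant in Lef1 P2, at 610 and 1086 FPKM, neither of them called. Of the 19, 15 had a ratio above 0 in Lef1 P2, and Ldha, Hk2 and Kdm3a had one below 0. The median of all genes tested was itself above 0 as deposited (0.09) and below it with median-of-ratios scaling (-0.07), so the 15 depend on scaling. In Lef1 P5 against empty vector P2, 0 of the 19 were called, and Vegfa was at 13.0 FPKM. Of the 13 genes for cofactor supply 1 was called higher in Lef1 P2, the zinc transporter gene Slc39a13 (2.83 to 6.67 FPKM), at a log2 ratio of 1.00 on the threshold. Gulo, which encodes the last enzyme of ascorbate synthesis, was at 2.26, 4.65 and 1.54 FPKM, and was called lower in Lef1 P5 than in Lef1 P2.

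**Figure D4:**
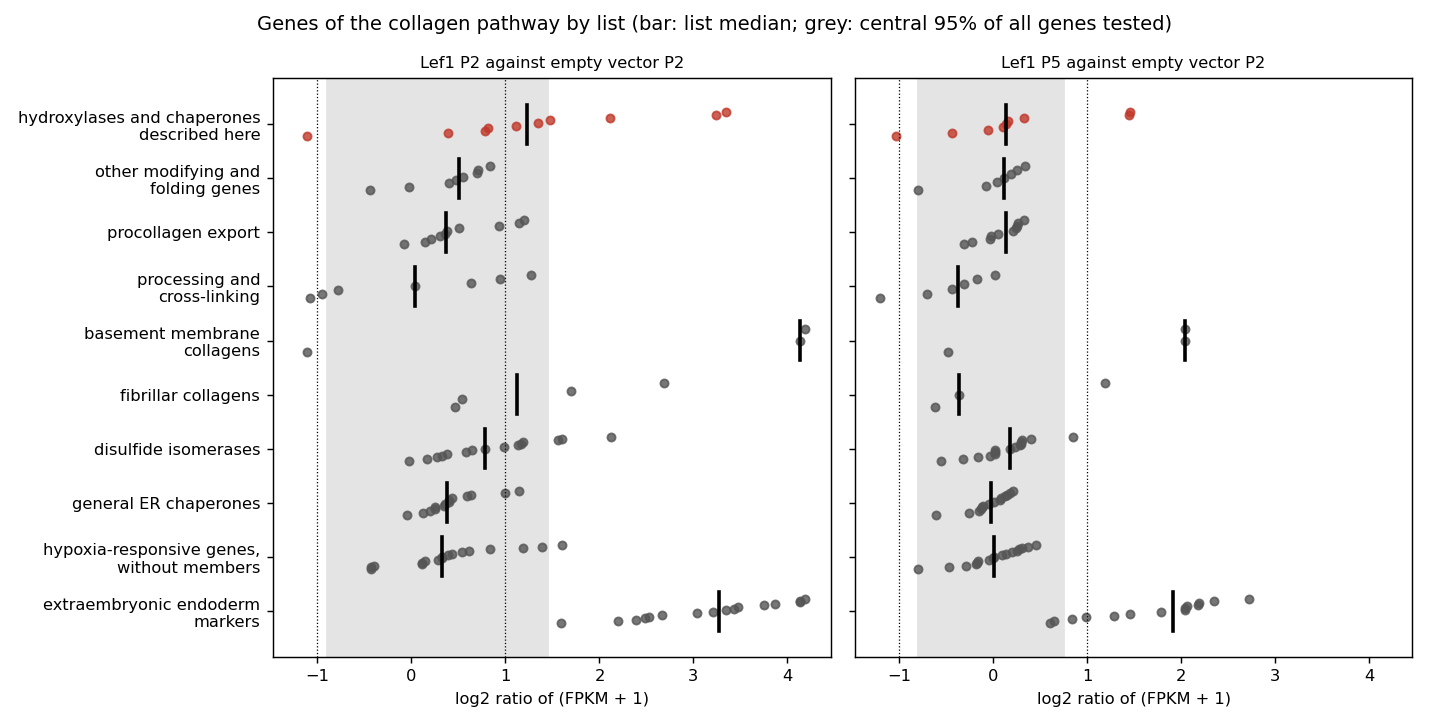
Log2 ratio of (FPKM + 1) (x axis) of single genes by list (rows), for Lef1 P2 and Lef1 P5 against the same empty vector P2 library, for genes at 3 FPKM and 20 reads or more; bars are medians of the points shown and grey the central 95% of all genes tested. The 10 genes (red) spread from -1.11 to 3.35 in Lef1 P2, and all 16 extraembryonic endoderm markers lie past 2-fold there.

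Markers of extraembryonic endoderm were highest in Lef1 P2, as were 9 of the 10 members, but not Fkbp10. All 16 of that list were called higher in Lef1 P2, where 6.49% of all genes tested were called higher. The marker lists were chosen with earlier results of these data known, so such counts are a description only. The summed level of the 16 was 281 FPKM in empty vector P2, 2212 FPKM in Lef1 P2 and 662 FPKM in Lef1 P5. Gata4 was at 2.82, 66.0 and 16.2 FPKM. In Lef1 P5 10 of the 16 were called higher than with the empty vector, and 13 of the 16 lower than in Lef1 P2. The list holds Col4a1, Col4a2 and Sparc. Of 8 parietal endoderm markers 5 were called higher, and the sum of the 8 was 76.3, 516 and 147 FPKM. Lamb1, which is also in the extraembryonic list, gave 31.6, 330 and 78.7 FPKM of these sums. Of 9 visceral endoderm markers 4 reached the levels needed and 3 were called higher, and Ttr and Afp were listed in no library. Of those called, Cubn and Amn are also in the extraembryonic list. The part of these cells in the members' levels was not tested. Pluripotency markers were high in each library, as the label of embryonic stem cells requires, with sums of 6881, 6165 and 6783 FPKM. As deposited, 10 of 10 were uncalled in every comparison, with Pou5f1 at 1135, 704 and 1062 FPKM. Utf1, at 394, 203 and 297 FPKM, was just short of a call in Lef1 P2 against empty vector P2 (log2 ratio -0.96). Median-of-ratios scaling divides Lef1 P2 by 1.097 and empty vector P2 by 0.9805, which puts Utf1 past the threshold, as lower.

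Markers of fibroblasts and feeder cells, which also make these enzymes, had sums of 191, 194 and 98.3 FPKM, mostly from Fn1 (166, 175 and 87.5 FPKM). Of the 16 genes Postn, Prrx1, Lum and Fap were listed in no library, and 4 reached 3 FPKM and 20 reads in Lef1 P2 or empty vector P2. Twist1 was called higher in Lef1 P2, at 4.01 against 1.35 FPKM, and Thy1 (15.65 to 7.21 FPKM) and Prrx2 (4.07 to 1.07 FPKM) lower in Lef1 P5 than with the empty vector. Below that level, Col1a2 was at 0.23, 0.06 and 0 FPKM and Pdgfrb at 1.29, 2.36 and 0.50 FPKM. Of 10 bone and cartilage markers 2 reached the levels needed for a call, Alpl (38.1, 57.2 and 47.0 FPKM) and Matn1 (5.51, 5.73 and 4.04 FPKM), and neither was called in the 3 comparisons.

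The genes with the pattern most like Serpinh1 were sought among 10721 genes, members left out, by the distance between their pairs of log2 ratios to empty vector P2 over the 3 libraries. The nearest were the laminin gene Lamb1 (distance 0.16, with 31.6, 330 and 78.7 FPKM), H2-Ab1 (0.32), the laminin gene Lama1 (0.36, with 24.0, 277 and 85.2 FPKM), the proteoglycan gene Srgn (0.39) and Vnn1 (0.43). Srgn was at 5.30, 79.5 and 19.1 FPKM. H2-Ab1 was at 0.38, 10.3 and 2.90 FPKM and Vnn1 at 0.41, 12.7 and 4.19 FPKM. Both were below the pseudocount of 1 FPKM in empty vector P2, so their nearness to Serpinh1 depends on it. Nearest to the members' median were Gm8801, Atp6v0a4, Mettl27, Sema4c and Oxsm, at distances of 0.02 to 0.04, none of them a collagen gene. With 3 libraries, likeness of this kind is a description only.

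Some levels carry a further limit. Counts were whole in 9 of the 10 members, and P3h3 had an expected count that was not whole in Lef1 P2. P4ha2, Plod2, P3h1, Serpinh1 and Fkbp10 have more than 1 RefSeq transcript and a listed length that varied between libraries, by at most 7.34 bases, in Serpinh1. In the RefSeq table of GRCm38.p6, Fkbp10 overlaps Nt5c3b, Plod3 overlaps Znhit1 and Plod2 overlaps B430319G15Rik. Use of strand in counting was not given in the sources used here, so reads of such pairs may not be separable. Nt5c3b was at 17.9, 18.9 and 23.8 FPKM and Znhit1 at 24.9, 16.2 and 24.5 FPKM, and neither was called. B430319G15Rik was at 1.86, 3.26 and 1.38 FPKM, also without a call, and was highest in Lef1 P2, as was Plod2.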

How the data were processed

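Total RNA of 3 mouse embryonic stem cell cultures was sequenced, 1 library per group. The aligner Bowtie 0.12.2 and genome build mm8 are named in the submitters' processing notes, and the counting program was not given in the sources used here. Columns are, per the file headers, Entrez number, transcripts, length, expected count and FPKM. The deposited expected counts were estimated by the authors and were not whole in 8.49% to 8.61% of listed genes. The deposited FPKM values were matched within 0.5%, for at least 98.1% of genes at 10 FPKM or more, by dividing the expected count by its library sum and by the length less 53 to 62 bases. Genes missing from a table were set to 0. At these depths 3 reads on a transcript of 1 kb are 0.320 to 0.327 FPKM.

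Symbols came from the RefSeq table of GRCm38.p6 (17951 of 17997 numbers matched), used only for names, promoters and neighbouring genes, since the build differs from mm8. A pseudocount of 1 FPKM understates ratios of weak genes. Intervals are exact Poisson for levels and conditional binomial (Clopper-Pearson) for ratios, at 95%. They cover counting error only. They may be too narrow even for that, since reads that carry no molecular identifier can be copies of 1 molecule. Members and gene lists were chosen with earlier results of these data known. Named genes are the members, Lef1, called or most abundant genes of the lists and the 5 nearest patterns, and others were named as examples after their values were seen. Python 3.11.15, scipy 1.17.1 and edgeR 4.0.16 (TMM factors only) were used. The alternatives were pseudocounts, minimum levels, scalings, length and fold thresholds.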

Additional observations from a re-analysis of the deposited data

Results flagged for a closer look

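Plod1 was 1.75-fold the empty-vector level in Lef1 P2 and 0.72-fold in Lef1 P5, the only one of the 10 genes whose Lef1 libraries lay on opposite sides of empty vector P2 with counting intervals that excluded 1. With 1 library per group the difference was not tested, and both ratios use the same empty-vector library.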

How the results depend on the processing

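With 1 library per group no replicate could be left out. No paired analysis was possible because each group has 1 library. Ratios of the 10 genes kept their sign under each of the pseudocounts, scalings and length choices tried. With a 4-fold threshold the members called were 3 in Lef1 P2 against empty vector P2 (3 higher, 0 lower), 0 in Lef1 P5 against empty vector P2 (0 higher, 0 lower) and 1 in Lef1 P5 against Lef1 P2 (1 lower). With a 1.5-fold threshold 8 were called in Lef1 P5 against Lef1 P2, all 8 lower. With a pseudocount of 5 FPKM 0 were called lower in either comparison with empty vector P2, so Fkbp10 lost its calls, and 5 in place of 6 were called higher in Lef1 P2 against empty vector P2, without P3h3. P3h3 was also lost at a minimum of 10 FPKM. Median-of-ratios scaling also left 0 lower in Lef1 P5 against empty vector P2. Under TMM and median-of-ratios scaling 6 members were called in Lef1 P2 against empty vector P2, without P4hb. The scalings moved the median of all genes tested from 0.09 to -0.06 and -0.07 in that comparison, and from -0.14 to 0.03 and 0.06 between the Lef1 libraries. Depth limits P3h3, with 34 reads in empty vector P2. Counts over all genes depend on the settings more: in Lef1 P2 against empty vector P2, 691 higher and 194 lower became 245 and 83 with a pseudocount of 5, 357 and 121 at a minimum of 10 FPKM, 1225 and 281 with CPM without length, 1864 and 855 at 1.5-fold and 106 and 9 at 4-fold, with 304 and 305 lower under the scalings. In Lef1 P5 against empty vector P2, 142 and 130 became 42 and 25, 67 and 49, 269 and 276, 436 and 602, and 17 and 7 under the same 5 settings, and 192 and 222 with a pseudocount of 0.1. Between the Lef1 libraries, 199 and 727 became 101 and 180, 145 and 358, 272 and 1275, 845 and 2116, and 5 and 42, and 380 and 450 or 362 and 473 under median-of-ratios or TMM scaling.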

Other observations

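The genes next to the members on the chromosome, by the gene order of GRCm38.p6, were looked up after the data were seen. Of the 20 protein-coding genes on either side of the 10, 2 were called higher and 0 lower in Lef1 P2 against empty vector P2, where 6.49% of all genes tested were called higher. Only 10 of the 20 reached 3 FPKM in any library. Gdpd5, beside Serpinh1, was at 1.13 FPKM with the empty vector, 9.03 FPKM in Lef1 P2 and 2.72 FPKM in Lef1 P5. Pdlim4, beside P4ha2, was at 3.26, 14.7 and 3.48 FPKM in the same order. Fkbp10 lies next to P3h4, another gene of collagen modification, and P3h4 was at 10.3, 7.34 and 5.53 FPKM, lowest in Lef1 P5.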
